A study of Mus musculus with 9 samples.

Results

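The genes described are the 160 mouse genes with a symbol made of Zfp and a number, Zfp36 left out, whose average over all 9 libraries of the study reached 2 FPKM. FPKM is a count of fragments scaled to transcript length and to library size, so levels are comparable between genes of different length. Of 20717 genes listed, 333 carried such a symbol. Of these 160 reached the mean and are called members here, 170 lay below it and 3 had no values, so members were 48.0% of the Zfp symbols listed. The members were thus chosen by their measured mean level, and that level is given as a description with no test. RNA was sequenced from primary testicular peritubular myoid cells of C57BL/6J mice, the contractile cells around the seminiferous tubules. Control cells were untreated and grown at 37 °C in DMEM/F12 with 10% serum. The other groups came from the same kind of culture after 30 min in a water bath at 42 °C, collected 1 h or 6 h after the heat. Each group had 3 libraries, and the labels do not say whether these came from separate animals or cultures, so p-values rest on a spread among libraries that could be purely technical.

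Most Zfp genes encode C2H2 zinc-finger proteins, in which pairs of cysteines and histidines hold a zinc ion and a short helix reads DNA bases. In mammals the largest class joins an array of such fingers to a KRAB domain, which recruits the corepressor TRIM28 and through it the histone methyltransferase SETDB1, and many of its members silence transposable elements. The symbol Zfp was given by sequence resemblance, so the family also holds proteins that bind RNA, act on ribosomes or serve as ubiquitin or SUMO ligases.

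The label and the quality of the libraries bear on every value that follows. All 12 smooth-muscle and myoid markers examined passed the level filter, and their summed level was 6370 to 8490 FPKM in control and 1 h libraries and 5450 to 8000 FPKM at 6 h. Hspa1a, the inducible HSP70, was at 6.92 to 12.3 FPKM in controls, at 1228 to 1794 FPKM at 1 h and at 27.1 to 49.3 FPKM at 6 h. Not every chaperone separated the 6 h group from control: in replicate 2 of 6 h, 7 of 16 listed chaperones lay below every control and 6 above, while at most 1 lay below in each other heated library. Hsph1 stood there at 15.87 FPKM against 18.61 to 23.12 FPKM in controls. Replicate 2 of 6 h thus stood apart, and so did control 3, whose summed level of 12 Sertoli cell markers was 3240 FPKM, against at most 582 FPKM at 1 h and 537 FPKM at 6 h, with Clu at 2700 FPKM and Cldn11 at 237 FPKM. Fshr and Tsx, which mark Sertoli cells, were at most 0.09 and 0.07 FPKM in every library. Summed macrophage markers were at 54.5 to 92.7 FPKM in controls, 58.6 to 277 FPKM at 1 h and 45.2 to 282 FPKM at 6 h. Summed Leydig cell markers lay between 872 and 2140 FPKM, endothelial markers at no more than 88.3 FPKM and germ cell markers at no more than 32.8 FPKM. No marker of these 5 other cell types was called in any comparison. In such bulk samples, fewer cells of a type and less RNA per cell cannot be told apart.

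Zfp transcripts were mostly scarce in these cells. The median of the members' means was 4.36 FPKM, against 10.7 FPKM for all 11460 genes tested, and 89 members lay under 5 FPKM, 43 between 5 and 10 FPKM and 28 above 10 FPKM. The highest was Zfp207, which encodes the kinetochore and spindle protein BuGZ, at 76.56 FPKM. Zfp330 followed at 34.2 FPKM, Zfp706 at 24.6 FPKM and Zfp91, a ubiquitin ligase, at 21.4 FPKM. Zfp703, a corepressor of the Nlz class, had a mean of 19.3 FPKM, Zfp106, an RNA-binding protein, 19.2 FPKM, Zfp598, the ubiquitin ligase that marks collided ribosomes, 18.8 FPKM, and Zfp414 17.3 FPKM. At the border of the rule, Zfp810 and Zfp653 at 2.02 FPKM and Zfp236 at 2.03 FPKM were inside, while Zfp764 and Zfp770 at 1.98 FPKM and Zfp217 at 1.97 FPKM were outside.

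**Figure D1:**
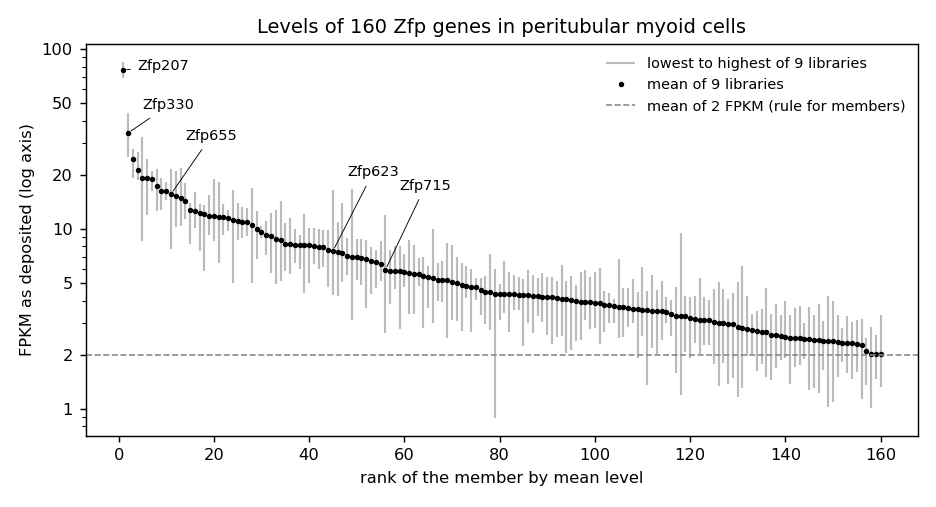
Level of each of the 160 members, ordered by mean (x axis, rank; y axis, FPKM as deposited on a log axis). Points are means over 9 libraries and grey lines run from the lowest to the highest library; Zfp207 stood at 76.56 FPKM, and 89 members lay between the dashed line at 2 FPKM and 5 FPKM.

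The symbol behind the rule already selects for zinc fingers, so finger counts describe the members and are no finding. In proteins translated from matched GENCODE transcripts, 155 of 160 members had at least 1 C2H2 finger, with a median of 9.0 fingers, and Zfp142 had the most, 37. A KRAB-like stretch was found in 63 members, whose median was 11.0 fingers, and a SCAN-like stretch, a dimerization domain, in 8. A further 66 members had at least 5 fingers without a KRAB-like stretch, 27 had 1 to 4 fingers, and 4 (Zfp330, Zfp365, Zfp503 and Zfp703) had neither. Members clustered in the genome, with 33 on chromosome 7 and 20 on chromosome 17. The longest run held 11 members between positions 21008941 and 22456689 of chromosome 17 (mm10), all 11 with a KRAB-like stretch.

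Some members share sequence with another gene, which short reads cannot separate fully. Of the 160 members, 36 shared more than 10% of their 50-base windows with transcripts of another gene, 8 shared more than 50%, and 64 shared none. Matches on either strand were counted, so these counts do not separate near copies from other transcripts that overlap a member. Zfp97 (chr17:17121383-17146878, plus strand) and Zfp960 (chr17:17064103-17089631, plus strand) are the example to look at. They shared 83.11% and 84.49% of their windows, and the first 507 bases of their coding sequences were identical. The first 90 of those bases, from the start codon, are printed from the GENCODE transcript to show what a read in this region would meet, in lower case throughout because every base is shared.
Zfp97 and Zfp960, coding bases 1 to 90: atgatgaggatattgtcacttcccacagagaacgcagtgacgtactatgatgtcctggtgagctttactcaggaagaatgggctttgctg
In control libraries 1 to 3, Zfp97 stood at 2.22, 2.14 and 2.21 scaled FPKM and Zfp960 at 4.19, 2.67 and 4.15, and how the reads of that stretch were divided between the genes is not given in the sources used here. Their levels and those of Zfp781, with 96.27% of windows shared, are therefore uncertain.

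The first question was how the members changed together 1 h after heat, before and after the libraries were brought to a common scale. As deposited, 133 of 160 members were lower at 1 h and 27 higher, with a median log2 change of -0.187. All genes tested showed nearly the same shift, with a median of -0.168 and 76.2% of genes lower. Libraries were then scaled by the median of ratios, with factors of 0.9429, 0.9538 and 0.9139 for the 1 h libraries, 1.039, 1.07 and 1.066 for controls and 1.012, 0.9857 and 1.072 at 6 h. After scaling the median of all genes was -0.014 and that of the members -0.041, with 67 members higher and 93 lower. Members at 6 h had a scaled median of -0.045, and all genes -0.016. Changes below are on the log2 scale of scaled FPKM with 1 added, which understates the change of genes with low levels.

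**Figure D2:**
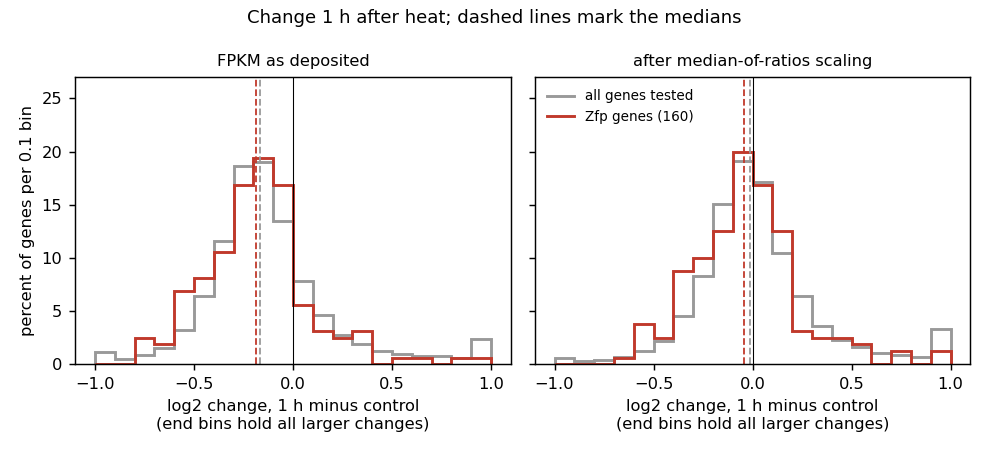
Distribution of the log2 change 1 h after heat (x axis) as the percent of genes per bin (y axis), for the 160 members in red and all 11460 genes tested in grey. As deposited the medians were -0.187 and -0.168, and after scaling -0.041 and -0.014. Scaling divides all genes of a library by 1 factor, so a like shift of both distributions follows from it.

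Library by library, the members' median varied more within the control and 6 h groups than between the group means. Each library's value was the median over members of the log2 difference from the mean of the controls, after scaling. It was -0.032, -0.076 and 0.104 in controls 1 to 3, which sets the spread that any joint change must exceed. The 1 h libraries had 0.001, -0.019 and -0.095, and 2 of these lay within the range of the controls. The 6 h libraries had 0.084, -0.211 and -0.002, so replicate 2 lay below the range of the controls and the other 6 h libraries within it. The highest control was the library with the high Sertoli marker level. Without control 3 the median change of the members was 0.011 at 1 h and 0.018 at 6 h. Without replicate 2 of 6 h it was 0.034 at 6 h, without replicate 1 of 6 h it was -0.114, and without both control 3 and replicate 2 of 6 h it was 0.092.

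**Figure D3:**
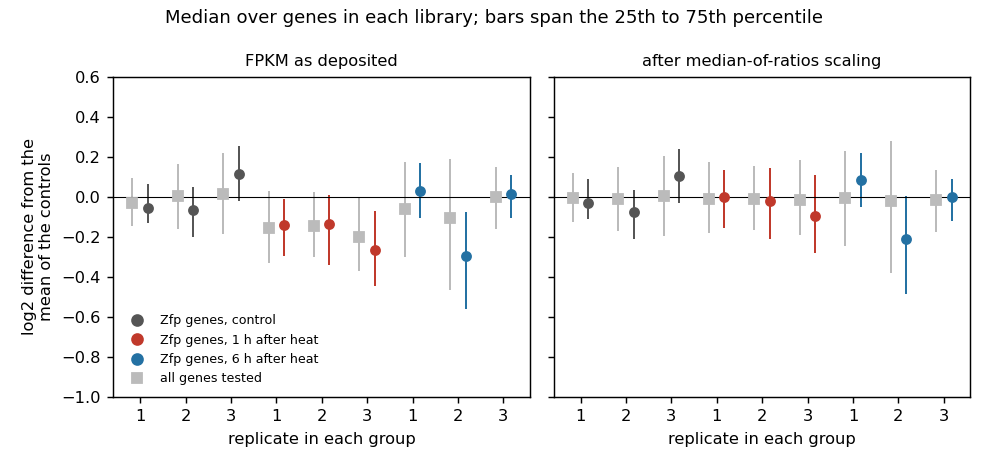
Median log2 difference of each library from the mean of the controls (y axis), with members as circles coloured by group and all genes tested as grey squares; bars span the 25th to 75th percentile over genes and the x axis gives the replicate. After scaling, control 3 (0.104) and replicate 2 of 6 h (-0.211) held the highest and lowest member medians, and the 1 h values lay between -0.095 and 0.001.

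Of the 160 members, 1 was called higher at 1 h and 0 lower (limma, adjusted p below 0.05 over all genes tested), where 0.227% of all genes were called higher and 0.0% lower. With unadjusted p, 8 members passed 0.05 upward and 8 downward, 5.0% each, beside 4.6% and 2.3% of all genes. The downward count was 4 with the replicate block, 3 without replicate 3 of 1 h and 13 without control 2. Without scaling, 0 members were called, beside 18 of 11460 genes called higher and 0 lower. With unadjusted p and no scaling, 3 members passed 0.05 upward (1.88%) and 25 downward (15.6%), beside 2.76% and 8.05% of all genes. In 18 members all 1 h libraries lay above all controls and in 20 all lay below, where 9.11% and 6.99% of all genes did so. Both directions together made 23.8% of the members, against 16.1% of all genes. The members also had a lower median SD within groups, 0.224 against 0.256 log2 units, and its part in that share was not tested. Without scaling 7 members lay above and 43 below, 31.2% in all, against 25.9% of all genes.

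The member called was Zfp623 (NCBI gene 78834, chr15:75940952-75949400 on mm10, plus strand), a protein with 13 C2H2 fingers, 499 residues and no KRAB-like stretch, whose targets are not described here. It stood at 4.22, 4.83 and 4.98 scaled FPKM in controls, at 12, 17.3 and 11.3 at 1 h, and at 5.13, 4.38 and 4.94 at 6 h. Every 1 h library was above every other library, and the 6 h libraries overlapped the controls. Means and SD over 3 libraries were 4.68 ± 0.4 in control, 13.5 ± 3.3 at 1 h and 4.82 ± 0.388 at 6 h. From control to 1 h the log2 change was 1.34 with an SE of 0.18 (limma adjusted p = 0.019). From control to 6 h it was 0.03 with an SE of 0.18 (limma adjusted p = 0.98). Between 1 h and 6 h Zfp623 fell by 1.3 on the log2 scale, with a limma adjusted p of 0.015. The call at 1 h held in 10 of 19 alternatives, with limma adjusted p from 0.015 to 0.093 and log2 changes from 1.16 to 1.49, and was lost when any single control or 1 h library was left out. The call between 1 h and 6 h held in 12 of 19, with limma adjusted p from 0.014 to 0.092. With the replicate number as a block, the limma adjusted p was 0.082 at 1 h and 0.064 between 1 h and 6 h.

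The other members with the most positive changes at 1 h did not pass the test. Zfp715, a KRAB protein with 19 fingers, stood at 4.48, 3.52 and 4.84 scaled FPKM in controls, at 6.65, 12.5 and 9.37 at 1 h, and at 5.05, 2.69 and 4.74 at 6 h. The 1 h libraries were all above the controls and differed among themselves, while the 6 h libraries overlapped the controls (log2 change 0.96, limma adjusted p = 0.33). Zfp9, a KRAB protein with 12 fingers, stood at 6.24, 6.2 and 4.81 in controls, at 11.6, 10.8 and 9.6 at 1 h, and at 5.82, 14.6 and 8.75 at 6 h. Here the 6 h libraries spanned both other groups (log2 change at 1 h 0.79, limma adjusted p = 0.53). Zfp655, with 7 fingers, stood at 11.7, 11.2 and 14.0 in controls, at 20.9, 22.3 and 19.6 at 1 h, and at 21.3, 7.81 and 12.6 at 6 h. Its log2 change at 1 h was 0.73 with a limma adjusted p of 0.64, in a spread that includes the wide 6 h group. Zfp703 had a change of 0.56 with overlapping groups, and Zfp950, a KRAB protein, one of 0.52 without overlap.

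The most negative changes at 1 h were smaller, and none was called. Zfp553, with 12 fingers, stood at 4.9, 4.71 and 7.06 scaled FPKM in controls, at 3.67, 3.05 and 2.7 at 1 h, and at 5.24, 6.91 and 7.76 at 6 h. The 1 h libraries were below all 6 others (log2 change -0.65, SE 0.2, limma adjusted p = 0.43). Zfp687, which works with ZMYND8 in a chromatin complex, stood at 5.39, 5.78 and 7.61 in controls, at 4.42, 3.72 and 3.42 at 1 h, and at 4.62, 4.98 and 5.08 at 6 h. Neither heat group overlapped the controls (log2 change at 1 h -0.57, limma adjusted p = 0.37). Zfp710, with 11 fingers, stood at 3.18, 2.83 and 4.33 in controls, at 2.11, 1.87 and 1.97 at 1 h, and at 4.13, 3.22 and 3.41 at 6 h. The 1 h libraries again lay below all others (log2 change -0.56, limma adjusted p = 0.42). Zfp7 had a change of -0.57, with control 3 at 5.81 and the other controls at 2.3 and 2.43. Zfp579 had -0.56 with overlapping groups, and Zfp52, a KRAB protein, -0.55 without overlap. For Zfp553, Zfp687, Zfp710, Zfp7 and Zfp579 the highest control was control 3, the library with the high Sertoli markers. Without it the log2 changes of Zfp7 and Zfp579 were -0.23 and -0.32. The changes of Zfp553, Zfp687 and Zfp710 without control 3 are not given here, so their size may also lean on that library.

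**Figure D4:**
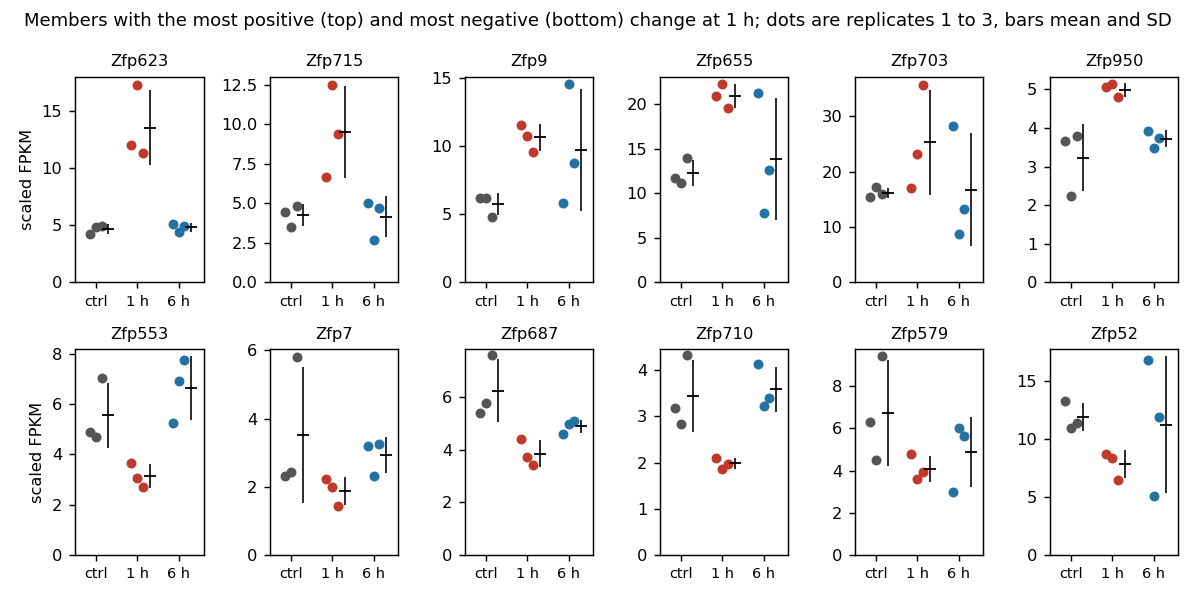
Scaled FPKM (y axis, from 0) of the 6 members with the most positive change at 1 h (top) and the 6 with the most negative (bottom). Dots are the 3 replicates of each group and bars show mean and SD; the 1 h values of Zfp623 (11.3 to 17.3) lay above all its other values (4.22 to 5.13), while the 6 h values of Zfp9 and Zfp655 spanned the other groups.

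The promoters of members at both ends are shown because those members lay clear of the controls at 1 h and had 1 start in the RefSeq table (GRCm38.p6). Each line gives the 250 bases before the start, 5′ to 3′ on the gene's strand. Capitals mark matches on either strand to the motifs searched, which were GAANNTTC and TTCNNGAA, as pairs of heat-shock element units, TGANTCA as an AP-1 site, the CCAAT box, GGGCGG as a GC box and TGACGTCA as a cyclic AMP element. Matches of different motifs may overlap. The windows are chr7:43313301-43313550 (minus strand) for Zfp715 and chr5:145231492-145231741 (plus strand) for Zfp655, with positive changes, and chr7:127232811-127233060 (plus strand) for Zfp553 and chr7:80024564-80024813 (plus strand) for Zfp710, with negative ones.
Zfp715: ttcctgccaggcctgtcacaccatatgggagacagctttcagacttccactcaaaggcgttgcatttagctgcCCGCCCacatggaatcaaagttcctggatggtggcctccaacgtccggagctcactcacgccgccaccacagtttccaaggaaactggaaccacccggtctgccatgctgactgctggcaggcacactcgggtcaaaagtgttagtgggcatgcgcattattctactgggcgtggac
Zfp655: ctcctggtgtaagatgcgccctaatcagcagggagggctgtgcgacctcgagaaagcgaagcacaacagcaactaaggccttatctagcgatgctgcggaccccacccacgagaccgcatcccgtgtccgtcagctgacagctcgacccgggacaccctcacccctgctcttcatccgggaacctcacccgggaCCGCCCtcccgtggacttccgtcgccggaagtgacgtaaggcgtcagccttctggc
Zfp553: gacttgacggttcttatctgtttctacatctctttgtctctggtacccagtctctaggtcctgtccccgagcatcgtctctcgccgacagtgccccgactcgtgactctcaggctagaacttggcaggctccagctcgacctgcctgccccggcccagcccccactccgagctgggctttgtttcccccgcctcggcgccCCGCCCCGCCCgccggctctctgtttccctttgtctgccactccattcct
Zfp710: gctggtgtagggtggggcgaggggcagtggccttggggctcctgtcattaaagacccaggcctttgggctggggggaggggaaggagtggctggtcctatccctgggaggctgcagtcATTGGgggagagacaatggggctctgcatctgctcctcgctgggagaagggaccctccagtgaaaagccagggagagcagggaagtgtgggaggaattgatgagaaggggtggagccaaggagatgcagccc
Zfp715 and Zfp655 each held 1 GC box, Zfp553 held 2 and Zfp710 held 1 CCAAT box, and the other letters searched were not found in these windows. GC made 56.4%, 63.2%, 62.8% and 62.4% of the bases in that order.

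Motif shares were counted over the 131 members with a promoter in that table. GAANNTTC was found in 13 members (9.92%), against 5.95% of 9206 tested genes and 7.73% of all 27025 genes in the table. TTCNNGAA was found in 5 members (3.82%), against 7.08% and 8.11%. A CCAAT box was found in 47.3% of members and 40.8% of tested genes, a GC box in 58.8% and 65.8%, TGACGTCA in 4.58% and 3.11%, and TGANTCA in 4.58% and 5.61%. Among members clear of the controls at 1 h, GAANNTTC was in 2 of 14 that were higher and 3 of 17 that were lower, and TTCNNGAA in 0 of either. Zfp623 had no window in this table.

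Members were then described by protein structure, with no test between classes. The classes rest on sequence patterns, which can miss a domain, so members without a KRAB-like stretch may still hold a KRAB domain. The 63 members with a KRAB-like stretch had a median log2 change at 1 h of -0.039, beside -0.041 for all members, with 28 higher and 35 lower. In each direction 10 were clear of the controls, 31.7% in all, beside 23.8% of all members and 16.1% of all genes. Members with at least 5 fingers and no KRAB-like stretch had a median of -0.082 (20 higher, 46 lower), and those with 1 to 4 fingers a median of 0.005 (15 higher, 12 lower). At 6 h these medians were -0.039, -0.056 and -0.032. Zfp809, which silences retroviruses in stem cells, stood at 19.5, 9.66 and 20.3 scaled FPKM in controls, at 19.6, 13.8 and 12.3 at 1 h and at 12.8, 11.0 and 13.3 at 6 h, with overlap between control and both heat groups. Zfp57, which maintains imprinted methylation, had log2 changes of -0.16 at 1 h and -0.06 at 6 h. Zfp932, a repressor of endogenous retroviruses, had -0.14 and -0.08, but 55.51% of its windows matched another gene. Zfp110, which binds the neurotrophin receptor p75, had -0.04 and -0.14. Zfp568, a repressor of a placental Igf2 promoter, had 0.31 at 1 h and -0.6 at 6 h, and its value in replicate 2 of 6 h was 0.903 against 4.45 and 3.43 in the others.

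The partners of KRAB proteins did not pass the test either. Of 30 corepressor and heterochromatin genes tested from a list of 32, 0 were called in any comparison by limma. With unadjusted p, 0 passed 0.05 at 1 h, beside 4.6% of all genes upward and 2.3% downward. At 6 h, 3 of the 30 passed it downward and 0 upward, beside 2.72% and 1.75% of all genes. The median log2 change was -0.088 at 1 h and -0.135 at 6 h, beside -0.014 and -0.016 for all genes. Trim28 stood at 49.5, 60.0 and 43.3 scaled FPKM in controls, at 56.0, 53.4 and 42.5 at 1 h and at 47.0, 69.1 and 51.9 at 6 h. The groups overlapped throughout. Setdb1 had log2 changes of -0.23 and -0.07, with limma adjusted p of 0.96 at both times.

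None of the named members that act on RNA, on ribosomes or at the spindle was called. Zfp207 stood at 75.1, 72.6 and 64.8 scaled FPKM in controls, at 78.4, 83.8 and 80.6 at 1 h and at 72.8, 86.3 and 72.8 at 6 h. Its 1 h libraries were all above the controls by a log2 of 0.19 (limma adjusted p = 0.89), a value that was 0.02 without scaling. Zfp598 had a change of 0.14 at 1 h, which was -0.02 without scaling. Zfp622, a factor of large ribosomal subunit maturation, had 0.01, and Zfp593, a factor of large subunit export, 0.36. Zfp593 stood at 6.29, 5.17 and 5.89 scaled FPKM in controls, at 7.41, 7.45 and 8.15 at 1 h and at 8.8, 6.88 and 7.79 at 6 h. Both heat groups were above all controls (log2 0.36 and 0.38, limma adjusted p of 0.64 and 0.89), and 64.52% of its windows matched transcripts of another gene, so its level is uncertain. The RNA-binding members Zfp106, Zfp326, Zfp638 and Zfp346, the last a binder of double-stranded RNA, had changes of 0.08, 0.08, -0.03 and -0.27 at 1 h, and none was called.

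None of the transcription factors of known function among the members was called at 1 h. Zfp143, which binds many promoters, had a log2 change of -0.02 and an SE of 0.16, and Zfp148, a GC-rich promoter binder, -0.02 with an SE of 0.23. Zfp64 and Zfp410, an activator of Chd4, had -0.01 and 0.02. Zfp335 had -0.16, Zfp462 -0.09, and Zfp592 and Zfp532, partners of Zfp687, 0.05 and -0.38. Zfp281, a regulator of pluripotent cells, stood at 11.8, 6.94 and 11.6 scaled FPKM in controls, at 12.1, 12.7 and 18 at 1 h and at 13.6, 5.07 and 9.01 at 6 h. Its 1 h libraries were above the controls by little (log2 0.47, limma adjusted p = 0.90), and the 6 h libraries spread around them. Zfp644, a partner of the methyltransferases G9a and GLP, had -0.3, with control 3 at 15.6 and the other controls at 5.98 and 5.69, and 0.13 without control 3. The SUMO ligase Zfp451 had 0.25, the ubiquitin ligase Zfp91 -0.06 and Zfp365, a centrosomal protein, 0.05.

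Other C2H2 families held some calls. Of 70 tested genes of the Klf, Sp, Egr, Zbtb, Zscan and Zkscan kinds and their like, 3 were called higher at 1 h and 0 lower by limma. Finger counts for this list are not given here, and it includes Zbtb8os, so not every gene in it need encode a C2H2 protein. Among all genes tested, 0.227% were called higher and 0.0% lower. With unadjusted p, 11 of the 70 passed 0.05 upward and 4 downward, beside 4.6% and 2.3% of all genes. Between 1 h and 6 h, 5 were called lower by limma, beside 0.384% of all genes. The 3 called higher at 1 h were Egr4, with a log2 change of 3.88 (limma adjusted p = 0.0048), Zkscan5, with 1.45 (limma adjusted p = 0.0058), and Klf7, with 1.1 (limma adjusted p = 0.026). The median of the 70 was -0.016, beside -0.041 for the Zfp members, and no test compared the lists. Of 16 chaperones, 6 were called higher at 1 h, with a list median of 2.13.

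Transcript composition and mean level both went with the change at 1 h. In the 80 members with the lower GC content the median log2 change was 0.025, and 14 were clear of the controls above and 5 below. In the 80 with the higher GC content it was -0.105, with 4 above and 15 below. Among all tested genes in the same GC ranges the medians were 0.014 and -0.036. Of all tested genes up to the members' median GC, 10.6% were clear above and 4.35% below, beside 17.5% and 6.25% of these members. Of those with more GC it was 8.19% and 8.62%, beside 5.0% and 18.8%. Across genes, Spearman's rho of GC and change was -0.31 over 160 members and -0.14 over 11413 genes, a description only, since genes of 1 library share its preparation and base composition. Between 1 h and 6 h rho was 0.37 in members and 0.34 in all genes. Transcript length had a rho of -0.36 with the change at 6 h in members and -0.38 in all genes. For mean level, rho with the change at 1 h was 0.28 in members and 0.16 in all genes, again a description only. Mean level is the value that the rule used, and it includes the 1 h libraries, so it is not independent of the change. The 1 added before the log also makes the size of a change depend on level. The 80 members with the lower levels had a median change at 1 h of -0.087, and the 80 with the higher levels -0.006. All tested genes in the same level ranges had medians of -0.052 and -0.02. Whether GC or level went with the change apart from the other was not tested.

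**Figure D5:**
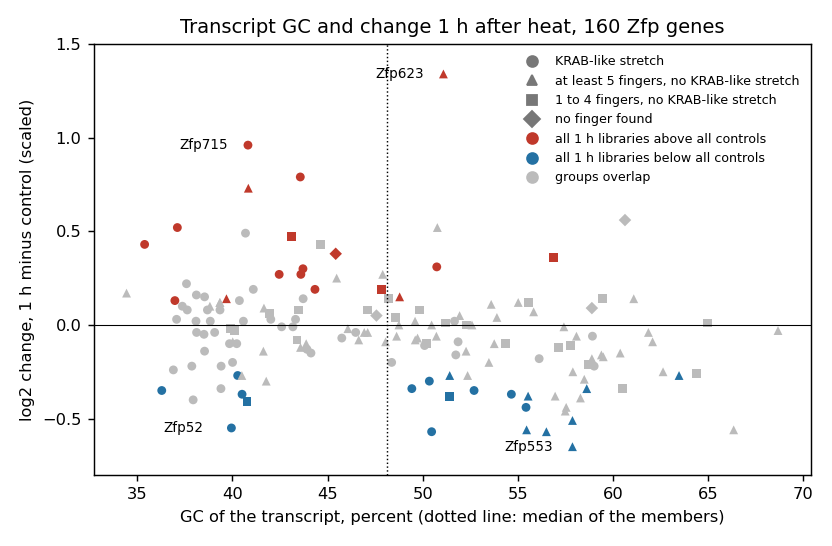
Log2 change 1 h after heat (y axis, scaled) against transcript GC (x axis, percent) for 160 members, with symbols for protein structure and colours for members whose 1 h libraries all lay above (red) or below (blue) the controls. Left of the dotted median 14 members are red and 5 blue, and right of it 4 are red and 15 blue.

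Runs of neighbouring members were described by the same measures. In the chromosome 17 run of 11 members with a KRAB-like stretch, the median log2 change at 1 h was 0.08, with 8 higher and 3 lower. Transcript GC in this run was 35.39% (Zfp758) to 40.69% (Zfp948). Zfp948 had the highest change of the run, 0.49, and Zfp52 the lowest, -0.55. On chromosome 7, the 5 members between positions 24081897 and 25227495 were all lower, with a median of -0.351. The 5 between 4915217 and 5053723 had a median of -0.342, with 4 lower, and the 6 between 127233443 and 127885996 one of -0.245, with 5 lower. The 5 on chromosome 6 between 47877555 and 48445825, among them Zfp282 and Zfp212 at -0.44 and -0.37, were all lower too, with a median of -0.249. The 4 between 29932791 and 30169727 on chromosome 7 had a median of 0.117, and Zfp568 and Zfp260 lie there. None of these runs was tested as a unit, and GC was not compared between runs.

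The second comparison, which uses the same controls, set 6 h against control. Of the members 0 were called in either direction (limma; with unadjusted p, 2 passed 0.05 upward and 1 downward, 1.25% and 0.625%, beside 1.75% and 2.72% of all genes), where 0.0% of all genes were called higher and 0.0% lower. In 2 members all 6 h libraries lay above all controls and in 6 below, where 2.98% and 4.21% of all genes did so, 5.0% of members against 7.18% of all genes. The scaled median was -0.045 with 62 higher and 98 lower, but it was 0.009 with 88 higher and 72 lower after quantile normalization. Zfp607, a KRAB protein with 18 fingers, had the most positive change, 1.19. It stood at 1.15, 1.53 and 2.25 scaled FPKM in controls, at 2.44, 1.45 and 1.85 at 1 h, and at 1.29, 9.59 and 7.68 at 6 h. Replicates 2 and 3 of 6 h were above every other library and replicate 1 was within the controls, which left a limma adjusted p of 0.89. Without replicate 1 of 6 h the log2 change was 1.88 with a limma adjusted p of 0.022, and 23 of 11460 genes were called higher. The high values of replicates 2 and 3 of 6 h also raised the mean that made Zfp607 a member. Its change at 6 h is therefore not independent of the level rule. Zfp91 stood at 20.1, 25.2 and 22.7 in controls and at 19.5, 18.9 and 19.9 at 6 h, below all controls by a log2 of -0.21. Zfp644, Zfp568, Zfp462 and Zfp579 had the most negative changes, from -0.62 to -0.39. Of these, Zfp644 changed by 0.06 and Zfp568 by -0.05 when control 3 and replicate 2 of 6 h were left out.

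The third comparison, which shares the 1 h and 6 h libraries with the other two, set 6 h against 1 h. One member, Zfp623, was called lower and 0 were called higher (limma), where 0.384% of all genes were called lower and 0.0% higher. With unadjusted p, 8 members passed 0.05 in each direction, 5.0% each, beside 3.83% of all genes upward and 5.76% downward. In 20 members all 6 h libraries lay above all 1 h libraries and in 15 below, where 8.89% and 9.16% of all genes did so, 21.9% of members against 18.1% of all genes. The median was 0.001, with 81 higher and 79 lower, and without scaling it was 0.108, with 100 higher and 60 lower. Zfp553 and Zfp710, low at 1 h, had changes of 0.88 and 0.62 with limma adjusted p of 0.13 and 0.24. Zfp715 had -1.02 with a limma adjusted p of 0.19.

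The deposited statistics passed far more members and genes than the fit described so far. A q-value of at most 0.001 in the authors' deposited table was reached at 1 h by 102 of 160 members (63.8%), beside 70.3% of all genes tested. In the authors' deposited table the count was 61 at 6 h (38.1%, beside 55.6%) and 89 between 1 h and 6 h (55.6%, beside 63.9%). With a change of at least 2-fold as well, the authors' deposited table held Zfp623 higher and Zfp7 lower at 1 h (3.12% and 2.5% of all genes tested), and Zfp607 higher at 6 h (2.27% higher and 1.74% lower of all genes). Between 1 h and 6 h the authors' deposited table held Zfp553 and Zfp607 higher and Zfp623 and Zfp715 lower (1.61% and 1.85% of all genes). The median log2 change of the members in the authors' deposited table was -0.23 at 1 h, beside -0.205 for all genes tested.

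Zfp genes below the level rule are given for comparison. Of the 170 with a mean below 2 FPKM, 84 passed the filter of 1 FPKM in 3 libraries. Their median change at 1 h was -0.089, with 30 higher and 54 lower, 0 called by limma (4 passed an unadjusted p of 0.05, all downward), 1 clear of the controls above and 15 below. Among all genes tested, 264 of 11460 passed downward with unadjusted p (2.3%), and 9.11% and 6.99% were clear above and below. These are not all the scarce Zfp genes, since a gene could pass through its higher group alone.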

How the data were processed

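Members and lists were chosen with earlier results of these data known. Per the file headers, the deposited values are FPKM per library, made by the authors, with the authors' log2 fold changes, p-values and q-values (DEGseq). Build mm10 and the tools RSEM 1.2.12, HISAT2 2.0.4 and Bowtie2 2.2.5 appear in the submitters' processing notes with no role or order. Whether strand was used is not given in the sources used here, and the table holds no read counts, so no counting interval is given. Of 20717 genes, 17559 had values and 3158 had none.

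FPKM were divided by median-of-ratios factors and tested as log2(FPKM + 1) with limma 3.58.1 (R 4.3.3), a variance trend, 9 libraries in 1 fit with 3 group means (6 residual degrees of freedom), two-sided, with Benjamini-Hochberg adjustment over 11460 genes with at least 1 FPKM in 3 libraries; a call is an adjusted p below 0.05. The fit was also run on simulated data with independent libraries. That run does not show how the fit behaves with libraries that stand apart or have correlated deviations. Control and 1 h libraries with the same replicate number had correlated deviations (r = 0.194, 0.146 and 0.258). Those with different numbers had r from -0.281 to 0.17. Between 6 h and 1 h, same numbers had r from -0.35 to -0.103, and different numbers reached 0.345. Deviations from a mean of 3 libraries depend on each other, so these values cannot decide whether the numbers pair libraries. The main fit had no replicate block, and the block was run as an alternative.

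Named members were those called, the 8 with the highest level, the 6 most changed in each direction at 1 h and the 4 at 6 h, 3 on each side of the level rule, and 32 of known function, of which 27 were members; other members named were chosen after their values were seen. Finger (C-2 to 4-C-12-H-3 to 5-H), KRAB-like and SCAN-like patterns were widened after values were seen and serve only as descriptions. Shared windows of 50 bases were counted in GENCODE transcripts on either strand. Alternatives were other scalings, a pseudocount of 0.1, other filters, no variance trend, only the groups compared, a replicate block, each library left out, and, chosen after seeing the data, control 3 and replicate 2 of 6 h left out together.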

Additional observations from a re-analysis of the deposited data

Results flagged for a closer look

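Zfp623 was marked because its changes at 1 h and 6 h, measured from the same controls, differed by a test of the difference itself. The log2 change was 1.34 at 1 h and 0.03 at 6 h, and the difference, 6 h minus 1 h, was -1.3 with a limma adjusted p of 0.015. All 3 of the 1 h libraries were above all 6 others.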

How the results depend on the processing

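The call of 1 member higher at 1 h (Zfp623) became 0 without library scaling (adjusted p = 0.067 by limma), without a filter on low values (0.05) and with the replicate block (0.082), and ranged from 0 to 1 when each library was left out. The median change at 1 h was -0.187 without scaling, and from -0.098 to 0.011 when each library was left out, the last without control 3. At 6 h the count of members called higher ranged from 0 to 1 over the left-out libraries, with Zfp607 called without replicate 1 of 6 h. In that setting 23 of all 11460 genes were called higher at 6 h, where the main fit called 0. The median at 6 h was 0.092 without control 3 and replicate 2 of 6 h together. Between 1 h and 6 h the count called lower became 0 with only these groups in the fit, with the replicate block, and without control 3 and replicate 2 of 6 h together, and ranged from 0 to 1 over the left-out libraries, as did the count called higher. Without replicate 1 of 6 h, 32 of all 11460 genes were called higher in this comparison and 89 lower. The main fit called 0 and 44. The replicate block changed no other call of a named member. Quantile normalization, upper-quartile scaling, the pseudocount of 0.1, the stricter filter, no variance trend and member thresholds of 1 or 5 FPKM kept these counts and kept the medians within 1 SD of the library medians (0.107). For named members, a change of sign among values of at least 0.3 in size occurred 4 times without control 3 and replicate 2 of 6 h together, once without control 3 and in no other setting. The cause of these differences was not tested.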
